A study of Homo sapiens with 4 samples.

Results

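The 32 genes described here encode the glucose transporters, the enzymes of glycolysis, the lactate and monocarboxylate transporters, and the enzymes of the pentose phosphate pathway with phosphoglucomutase and TIGAR. They were taken as a list of gene symbols with no threshold on a measured value, though with earlier results of these data known, and all 32 had values among the 15221 genes of the RNA-seq table. PANC-1 is a human pancreatic ductal adenocarcinoma cell line. PZT-2 is 1 clone derived from it by lentiviral delivery of U6-driven short hairpin RNAs (pLL3.7 with puromycin selection), 1 against the H2A.Z.1 gene H2AFZ and 1 against both isoforms from the H2A.Z.2 gene H2AFV. The comparison asked how transcript levels differ once this histone variant is depleted. There were 2 libraries of untransduced PANC-1 and 2 of PZT-2, both lines grown in DMEM with fetal bovine serum, and libraries of a scrambled-hairpin line were not analysed here. The knockdown, the viral integration, the drug selection and the growth of a single clone therefore cannot be told apart.

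Glycolysis carries glucose, trapped in the cell by hexokinase, to pyruvate, with a net gain of ATP and NADH. Lactate dehydrogenase then returns NAD+ and monocarboxylate transporters export the lactate. The pentose phosphate pathway branches from glucose 6-phosphate, its oxidative arm yielding NADPH and ribulose 5-phosphate and its non-oxidative arm interconverting pentoses with glycolytic intermediates. Pancreatic ductal adenocarcinoma is known for high glucose uptake and for use of the non-oxidative arm to make ribose.

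The libraries held between 12861479 and 15717575 estimated counts. H2AFZ had 6389 and 6034 normalized counts in PANC-1 and 2212 and 2259 in PZT-2 (log2 fold change -1.47, edgeR adjusted p = 6.16e-05). H2AFV had 3344 and 3452 in PANC-1 and 2590 and 2717 in PZT-2 (log2 fold change -0.36, edgeR adjusted p = 0.00563). Both targets were thus lower in each library labelled PZT-2, although without PZT-2 replicate 1 the H2AFV call was lost (adjusted p = 0.056). All 6 ductal epithelial markers (KRT7, KRT8, KRT18, KRT19, EPCAM and CDH1) had values, and their summed TPM (a level corrected for transcript length and library size) ran from 7224 to 7249 in PANC-1 and from 3745 to 3817 in PZT-2. KRT8, KRT18 and KRT19 made up nearly all of that sum, while EPCAM had 7.99 and 8.24 TPM in PANC-1 and 7.90 and 6.37 TPM in PZT-2. The summed TPM of the mesenchymal markers VIM, CDH2 and ZEB1 ran from 6371 to 6424 in PANC-1 and from 4484 to 4596 in PZT-2, and that of the 2 fibroblast markers listed of 5 from 10.7 to 11.6 and from 3.14 to 3.94. VIM made up nearly all of the mesenchymal sum. VIM and CDH2 were lower, while ZEB1 had 0.183 and 2.86 TPM in PANC-1 and 2.55 and 2.63 in PZT-2. COL1A1 made up nearly all of the fibroblast sum, while PDGFRB had 0.191 and 0.223 TPM in PANC-1 and 0.331 and 0.281 in PZT-2. None of the 5 acinar and none of the 4 endocrine markers was listed, and the part of these marker differences in the values below was not tested. In bulk RNA, fewer cells of a type and less RNA per cell cannot be told apart.

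Of the 32 members, 13 were higher and 3 were lower in PZT-2 at an adjusted p of 0.05 (edgeR quasi-likelihood fit, adjusted by Benjamini-Hochberg over 15101 genes). In that fit 28.4% of all genes were called, 14.7% higher and 13.7% lower. The 13 higher genes spanned the pathway from the glucose transporter SLC2A1 to the lactate exporters SLC16A1 and SLC16A3, while the 3 lower genes were GAPDH, ENO1 and PGD. Every called member had a mean of at least 200 normalized counts, a level reached by 28 members, and 39.0% of all genes at that level were called, 20.1% higher and 18.8% lower. The median log2 fold change was 0.17 over the members and 0.000954 over all genes. The lines did not overlap for 27 members, against 66.2% of all genes. PZT-2 was above in 21 and below in 6 of them, against 33.3% and 32.9% of all genes, and the lines overlapped for the other 5. SLC2A1, HK1, ENO1, ENO2, PKM, PGD and RPIA were called under all 17 alternative settings of the processing. An exact permutation test of 2 libraries against 2 cannot give a p below 0.333, so the p-values rest on the spread that edgeR pools over genes. They measure the variation between these libraries, and the labels do not say whether replicates came from separate cultures.

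**Figure D1:**
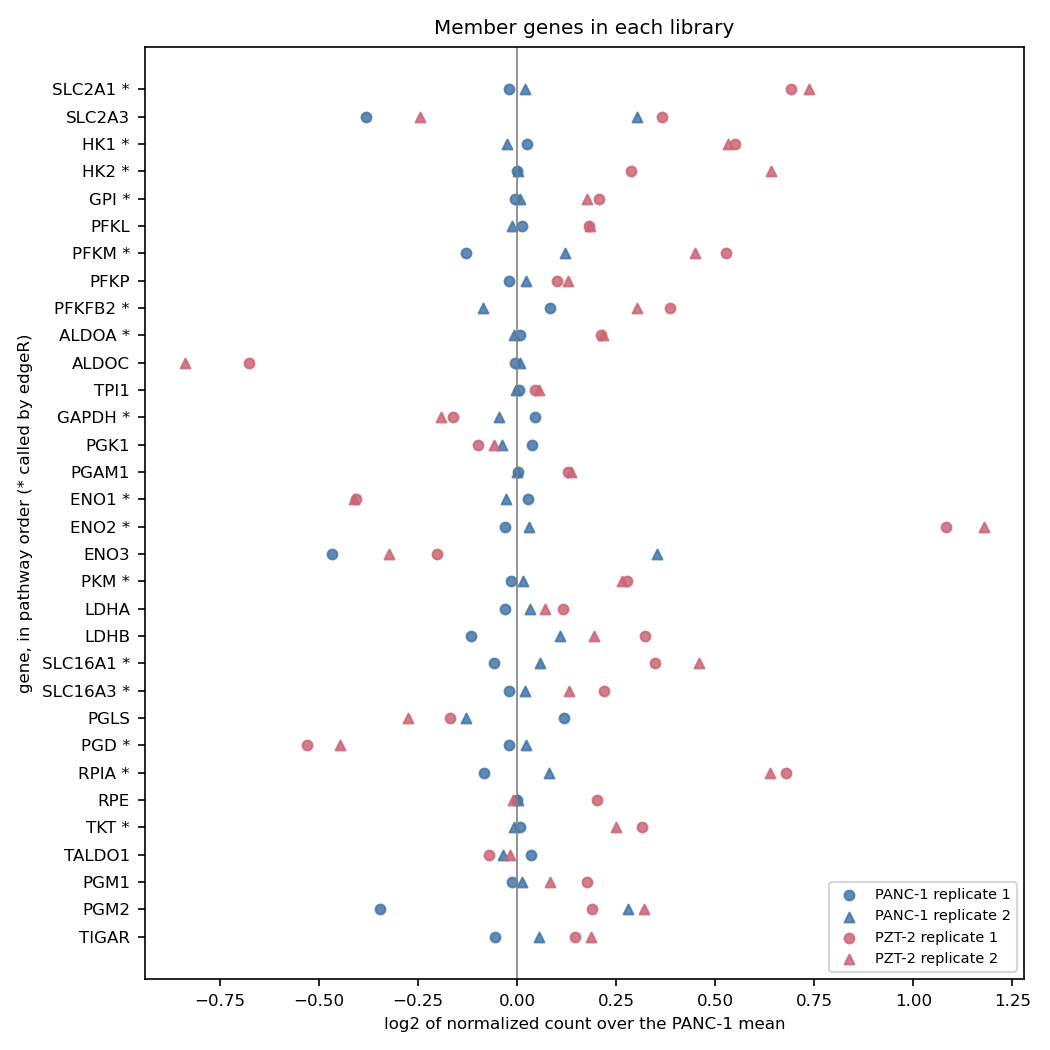
Each row is a member gene in pathway order, and each point is 1 library's normalized count over the PANC-1 mean, on a log2 axis (circles, replicate 1; triangles, replicate 2; blue, PANC-1; red, PZT-2; asterisk, called by edgeR). ENO2 stands farthest right and ALDOC farthest left, while SLC2A3, ENO3, RPE, TALDO1 and PGM2 have overlapping lines.

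The glucose transporter gene SLC2A1 and the hexokinase gene HK1 were higher in PZT-2. SLC2A1 encodes GLUT1, the basal glucose transporter of most proliferating cells, and had 737 and 758 normalized counts in PANC-1 and 1207 and 1246 in PZT-2. PZT-2 was far above PANC-1 in both libraries, with a log2 fold change of 0.71 (standard error 0.0644, edgeR adjusted p = 8.43e-04), or 1.64-fold. SLC2A3, which encodes the high-affinity transporter GLUT3, had only 9.00 and 14.5 in PANC-1 and 15.1 and 9.89 in PZT-2, and these overlapped. Its log2 fold change of 0.07 turned to -0.21 without PANC-1 replicate 1 and to -0.26 without PZT-2 replicate 1. SLC2A1 made up 98.4% to 99.4% of the summed TPM of both transporters in every library.

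HK1, the hexokinase found in most tissues, had 2532 and 2446 normalized counts in PANC-1 and 3645 and 3599.5 in PZT-2. The libraries of each line lay close together and the lines did not overlap, giving a log2 fold change of 0.54 (standard error 0.0540, edgeR adjusted p = 0.00115). HK2, the isoform commonly induced in tumours, had 200.3 and 201 in PANC-1 and 245 and 312 in PZT-2, with a log2 fold change of 0.47 (standard error 0.143, edgeR adjusted p = 0.0499). Both PZT-2 libraries were above PANC-1, though replicate 2 stood well above replicate 1. The HK2 call was the least stable of the 16, being kept under 4 of 17 alternatives. Its log2 fold change was 0.29 (p after adjustment = 0.272) without PZT-2 replicate 2, 0.47 (p after adjustment = 0.0566) without PANC-1 replicate 1 and 0.47 (p after adjustment = 0.0635) without PANC-1 replicate 2, and over the 17 alternatives its adjusted p spanned 0.0336 to 0.272. HK1 supplied 95.9% to 96.8% of the TPM of both hexokinases, so the higher hexokinase sum was almost wholly HK1.

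At the next steps the differences were smaller. GPI, which isomerizes glucose 6-phosphate to fructose 6-phosphate, had 6392 and 6454 normalized counts in PANC-1 and 7416 and 7250.4 in PZT-2. The lines were separate but near each other, at a log2 fold change of 0.19 (standard error 0.0469, edgeR adjusted p = 0.0256). Leaving out PZT-2 replicate 1 or replicate 2 gave 0.17 (p after adjustment = 0.184) and 0.21 (p after adjustment = 0.133), and over the 17 alternatives its adjusted p spanned 0.00493 to 0.184.

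Phosphofructokinase commits the sugar to glycolysis. The muscle-type subunit gene PFKM had 593 and 705 normalized counts in PANC-1 and 935 and 885 in PZT-2, and rose with a log2 fold change of 0.48 (standard error 0.0970, edgeR adjusted p = 0.0127). Both of its PZT-2 libraries were above both of PANC-1, with the PANC-1 pair the wider. The platelet-type subunit PFKP held 79.7% to 82.1% of phosphofructokinase TPM, with 7166 and 7378 in PANC-1 and 7799 and 7949 in PZT-2 and a log2 fold change of 0.11 (edgeR adjusted p = 0.121). The liver-type subunit PFKL had 1196 and 1176 in PANC-1 and 1345 and 1347 in PZT-2, with a log2 fold change of 0.18 (edgeR adjusted p = 0.0604). Neither was called, although neither overlapped between the lines. PFKM was 5.65% and 6.50% of the summed phosphofructokinase TPM in PANC-1 and 7.95% and 7.45% in PZT-2. Without PZT-2 replicate 1 the PFKM log2 fold change was 0.44 (p after adjustment = 0.0619), and over the 17 alternatives its adjusted p spanned 8.31e-04 to 0.0619.

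PFKFB2 makes and removes fructose 2,6-bisphosphate, the allosteric activator of phosphofructokinase. It had 550.2 and 489 normalized counts in PANC-1 and 678 and 641 in PZT-2, with both PZT-2 libraries the higher, and a log2 fold change of 0.35 (standard error 0.0887, edgeR adjusted p = 0.0293). The call was lost without PANC-1 replicate 2, at 0.25 (p after adjustment = 0.0915), without PZT-2 replicate 1, at 0.30 (p after adjustment = 0.141), and without PZT-2 replicate 2, at 0.39 (p after adjustment = 0.0828). Over the 17 alternatives its adjusted p spanned 0.00978 to 0.141. TIGAR, which lowers the same activator, had 205 and 221 in PANC-1 and 236 and 242 in PZT-2 and a log2 fold change of 0.16 (edgeR adjusted p = 0.316), which was not called.

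Aldolase splits fructose 1,6-bisphosphate. ALDOA, the main aldolase outside liver and brain, had 22588 and 22338 normalized counts in PANC-1 and 26004 and 26079 in PZT-2. The replicates of each line lay within a few percent and the lines were separate, at a log2 fold change of 0.21 (standard error 0.0381, edgeR adjusted p = 0.00843). ALDOC, the brain-type aldolase, had 52.9 and 53.3 in PANC-1 and 33.2 and 29.7 in PZT-2, and a log2 fold change of -0.75 (edgeR adjusted p = 0.0605). Both of its PZT-2 libraries were below PANC-1, but it was not called. It was called under 3 of the 17 alternatives, and over the 17 alternatives its adjusted p spanned 0.0236 to 0.305. ALDOC was 0.223% and 0.227% of aldolase TPM in PANC-1 and 0.122% and 0.109% in PZT-2. For ALDOA, leaving out PZT-2 replicate 1 gave 0.22 (p after adjustment = 0.0797) and leaving out PZT-2 replicate 2 gave 0.21 (p after adjustment = 0.0911), and over the 17 alternatives its adjusted p spanned 2.08e-05 to 0.0911.

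ALDOA also held the only member transcript called among 96 tested of 98, where edgeR called 0.148% of 30403 transcripts. Transcript NM_184043 had 2942 and 2681 normalized counts in PANC-1 and 937 and 978 in PZT-2 (log2 fold change -1.55, edgeR adjusted p = 0.0445). The main transcript NM_184041 had 19363 and 19482 in PANC-1 and 24710 and 24674 in PZT-2 (log2 fold change 0.35, edgeR adjusted p = 0.0712). The lesser transcript was thus lower and the main one higher in both PZT-2 libraries, and the share of ALDOA TPM held by NM_184043 was 13.3% and 12.2% in PANC-1 and 3.69% and 3.84% in PZT-2. GENCODE 29 on GRCh38 places the match of NM_184043, a match that NM_000034 shares, at a start 1399 bases upstream of the match of NM_184041, at positions 30064274 and 30065673 of chromosome 16. These transcripts share most exons, so their split depends on how kallisto assigned reads. With any 1 library left out, the log2 fold change of NM_184043 was -1.62 to -1.49 and its call was lost. On all 4 libraries DESeq2 called 24 member transcripts, against 14.5% of all transcripts.

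**Figure D2:**
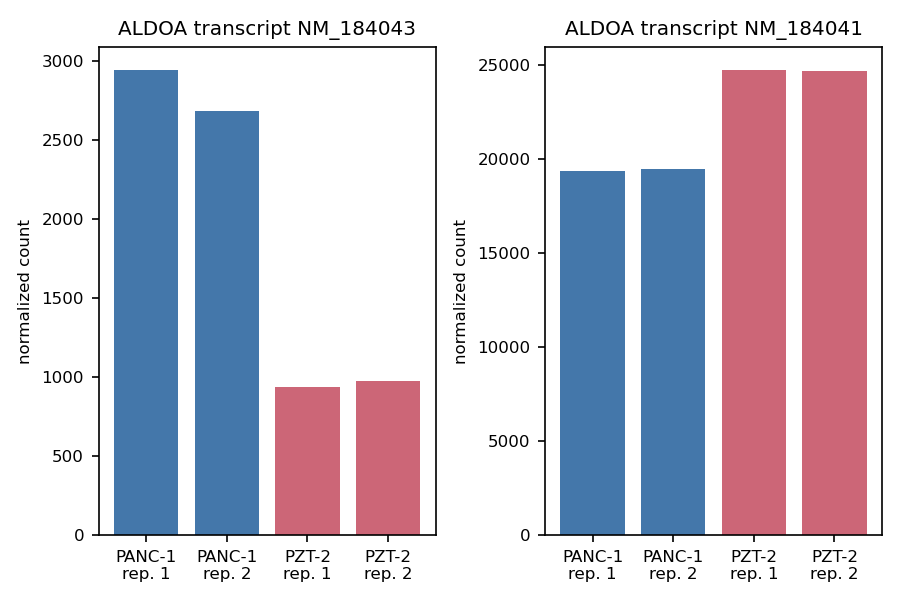
Bars give the normalized count of 2 ALDOA transcripts in each library (blue, PANC-1; red, PZT-2; axes from 0, with different scales). NM_184043 fell from 2942 and 2681 to 937 and 978, and NM_184041 was at 19363 and 19482 in PANC-1 and at 24710 and 24674 in PZT-2.

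TPI1, which interconverts the triose phosphates, had 9661 and 9604 normalized counts in PANC-1 and 9928 and 10002 in PZT-2, with a log2 fold change of 0.049 (edgeR adjusted p = 0.454). GAPDH, which oxidizes glyceraldehyde 3-phosphate and was the reference gene of the RT-qPCR assays in this study, had 58418 and 54829.9 normalized counts in PANC-1 and 50609 and 49589 in PZT-2. Both PZT-2 libraries were below both PANC-1 libraries, at a log2 fold change of -0.18 (standard error 0.0427, edgeR adjusted p = 0.0244), so that GAPDH fell by 11.5%. Without PZT-2 replicate 1 its log2 fold change was -0.19 (p after adjustment = 0.116) and without PZT-2 replicate 2 -0.16 (p after adjustment = 0.182), and over the 17 alternatives its adjusted p spanned 0.00154 to 0.182.

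PGK1, the first ATP-forming enzyme of the pathway, had 12162 and 11548 in PANC-1 and 11065 and 11386 in PZT-2, at a log2 fold change of -0.079 (edgeR adjusted p = 0.281). PGAM1, the phosphoglycerate mutase, had 13127 and 13104 in PANC-1 and 14332 and 14399 in PZT-2, at 0.13 (edgeR adjusted p = 0.0574). Neither was called, and both shifts were small beside that of the next enzyme. Several of these genes have processed pseudogenes, and the table listed TPI1P2, TPI1P3 and PGAM1P5 at no more than 15.8 normalized counts in any library, though reads of other copies may be counted with the parent gene.

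Enolase showed opposite changes in its isozymes. ENO1, the ubiquitous alpha-enolase and the second most abundant member per length after GAPDH, had 56137 and 54046 normalized counts in PANC-1 and 41558 and 41389 in PZT-2. The PZT-2 values were well below those of PANC-1, at a log2 fold change of -0.41 (standard error 0.0372, edgeR adjusted p = 8.55e-04), and ENO1 fell by 24.7%. ENO2, the gamma-enolase typical of neurons and neuroendocrine cells, had 344 and 359 normalized counts in PANC-1 and 744 and 796 in PZT-2. Both PZT-2 libraries were far above PANC-1, at a log2 fold change of 1.13 (standard error 0.0814, edgeR adjusted p = 4.41e-04), the largest log2 fold change among the members. ENO3, the muscle-type isozyme, had 39.4 and 69.6 in PANC-1 and 47.3 and 43.5 in PZT-2, which overlapped, and its log2 fold change of -0.28 became 0.20 without PANC-1 replicate 2. ENO2 was 0.439% and 0.474% of enolase TPM in PANC-1 and 1.27% and 1.36% in PZT-2. Total enolase TPM was 4254 and 4127 in PANC-1 and 3167 and 3150 in PZT-2, so the gain of ENO2 was small beside the loss of ENO1.

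PKM, whose product makes pyruvate, had 35466 and 36244 normalized counts in PANC-1 and 43478 and 43053 in PZT-2. The PZT-2 libraries were both higher, at a log2 fold change of 0.27 (standard error 0.0362, edgeR adjusted p = 0.00307). PKM gives the M1 and M2 pyruvate kinases by a choice between exons that exclude each other, M2 being the usual form in proliferating cells. In GENCODE 29 (GRCh38, minus strand of chromosome 15) each is exon 9 of its transcript and 167 bases long, and the exons have 105 identical positions. The joins are shown as the point where the forms part, some of the positions that tell them apart lying in these letters. Lower case marks the last bases of the shared exon 8 and capitals mark the first bases of the exclusive exon, at chr15:72202454-72202620 for M2 and chr15:72203022-72203188 for M1.
PKM2: cacctgATTGCCCGTGAGGCAGAGGCTGCC
PKM1: cacctgATAGCTCGTGAGGCTGAGGCAGCC
Transcripts with the M2 exon held 89.8% and 91.5% of PKM TPM in PANC-1 and 89.6% and 90.1% in PZT-2. Those with the M1 exon held the remaining 10.2% and 8.49%, and 10.4% and 9.94%. These shares overlapped between the lines, so the higher PKM level came without a separable shift between the forms. The split depends on how kallisto assigned reads, and several M1 transcripts were given their exon through the same GENCODE match.

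The lactate dehydrogenase genes were not called. LDHA, the form that favours lactate from pyruvate, had 19159 and 20009.6 normalized counts in PANC-1 and 21210.3 and 20562 in PZT-2, with a log2 fold change of 0.093 (edgeR adjusted p = 0.172). LDHB, the heart-type form, had 4466 and 5213 in PANC-1 and 6055 and 5539 in PZT-2, with a log2 fold change of 0.26 (edgeR adjusted p = 0.0661). PZT-2 was above PANC-1 in both, and LDHA was 71.0% and 68.6% of their summed TPM in PANC-1 and 66.6% and 67.9% in PZT-2. Without PANC-1 replicate 2 LDHB was at 0.37 (p after adjustment = 0.00179), and over the 17 alternatives its adjusted p spanned 0.00179 to 0.285. The LDHB transcripts NM_002300 and NM_001315537 carried equal values in all 4 libraries, so their split holds no information.

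Both exporters were higher. SLC16A1, which encodes the monocarboxylate transporter MCT1, had 801 and 868 normalized counts in PANC-1 and 1062 and 1146 in PZT-2, at a log2 fold change of 0.40 (standard error 0.0761, edgeR adjusted p = 0.0102). SLC16A3 encodes MCT4, a transporter of glycolytic cells, and had 9539.8 and 9802 normalized counts in PANC-1 and 11254 and 10594 in PZT-2, at a log2 fold change of 0.18 (standard error 0.0507, edgeR adjusted p = 0.0437). The lines did not overlap for either gene, and SLC16A3 held 94.8% to 95.9% of their summed TPM. Without PZT-2 replicate 2 the SLC16A1 value was 0.35 (p after adjustment = 0.0777), and over the 17 alternatives its adjusted p spanned 0.0026 to 0.0777. The SLC16A3 call was kept under 9 of 17 alternatives, its value being 0.15 (p after adjustment = 0.0602) without PANC-1 replicate 1, 0.13 (p after adjustment = 0.292) without PZT-2 replicate 1 and 0.22 (p after adjustment = 0.109) without PZT-2 replicate 2. Over the 17 alternatives its adjusted p spanned 0.0155 to 0.292.

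In the oxidative arm of the pentose phosphate pathway, the called member was lower. PGD, the 6-phosphogluconate dehydrogenase that yields NADPH and ribulose 5-phosphate, had 2869 and 2957 normalized counts in PANC-1 and 2015 and 2137 in PZT-2. Both PZT-2 libraries were below both PANC-1 libraries, at a log2 fold change of -0.49 (standard error 0.0595, edgeR adjusted p = 0.00224), and PGD fell by 28.7%. PGLS, the lactonase that precedes it, had 614 and 518 in PANC-1 and 503 and 468 in PZT-2, at a log2 fold change of -0.22 (edgeR adjusted p = 0.177). The PANC-1 libraries of PGLS were apart from each other, and without PANC-1 replicate 2 the value was -0.35 (p after adjustment = 0.0322), while over the 17 alternatives its adjusted p spanned 0.0322 to 0.538.

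In the non-oxidative arm 2 of 4 members were called and both were higher, where 28.4% of all genes were called and 39.0% of those with a mean of at least 200 counts, as all 4 had. RPIA, which makes ribose 5-phosphate, had 294 and 329 normalized counts in PANC-1 and 498 and 485 in PZT-2. Each PZT-2 library was clearly above PANC-1, at a log2 fold change of 0.65 (standard error 0.0941, edgeR adjusted p = 0.00396), or 1.57-fold. TKT, the transketolase, had 7838 and 7756 normalized counts in PANC-1 and 9706 and 9269 in PZT-2, with PZT-2 again the higher, at a log2 fold change of 0.28 (standard error 0.0482, edgeR adjusted p = 0.00715). Leaving out PZT-2 replicate 1 gave 0.25 (p after adjustment = 0.0742) for TKT, and over the 17 alternatives its adjusted p spanned 8.63e-06 to 0.0742. RPE, the ribulose 5-phosphate epimerase, had 558 and 559 in PANC-1 and 642 and 555 in PZT-2, and TALDO1, the transaldolase, had 3972 and 3777 in PANC-1 and 3689 and 3824 in PZT-2. Both overlapped between the lines, with log2 fold changes of 0.10 (edgeR adjusted p = 0.48) and -0.044 (edgeR adjusted p = 0.605). Without PZT-2 replicate 1 the RPE value was -0.011.

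Phosphoglucomutase links glucose 6-phosphate with glycogen. PGM1, the main form, had 1534 and 1559.8 in PANC-1 and 1746 and 1637 in PZT-2, at a log2 fold change of 0.13 (edgeR adjusted p = 0.177). PGM2 had 127 and 196 in PANC-1 and 184 and 202 in PZT-2 and overlapped, PANC-1 replicate 1 lying below the other libraries, at 0.24 (edgeR adjusted p = 0.431). Its value was -0.028 (p after adjustment = 0.917) without PANC-1 replicate 1 and 0.59 (p after adjustment = 0.0242) without PANC-1 replicate 2, and over the 17 alternatives its adjusted p spanned 0.0242 to 0.917.

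Per transcript length, GAPDH, enolase and aldolase were, in this order, the most abundant steps in every library, and TIGAR and PFKFB2 the least. The mean TPM of a step in PZT-2 over that in PANC-1 was highest for glucose transport, at 1.62, ribose 5-phosphate isomerase, at 1.56, and hexokinase, at 1.44. The glucose transport sum holds SLC2A1 and SLC2A3 alone. With the 8 further transporter genes that had values it was 110.7 and 110.9 TPM in PANC-1 and 98.4 and 101 in PZT-2, a ratio of 0.901. Among the steps as summed over members, the ratio was lowest for 6-phosphogluconate dehydrogenase, at 0.706, enolase, at 0.754, and 6-phosphogluconolactonase, at 0.853. The members together held between 2.09% and 2.16% of all TPM in the 4 libraries, while single steps differed in opposite directions.

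**Figure D3:**
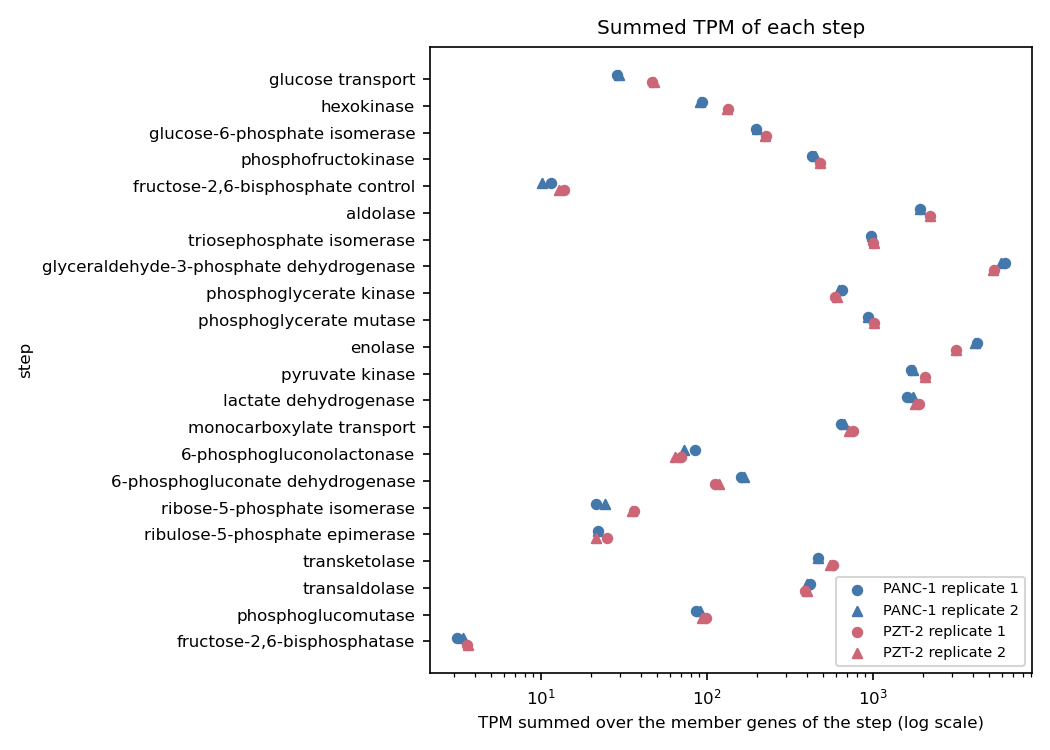
Each point is the TPM of 1 library summed over the member genes of a step, on a log axis (blue, PANC-1; red, PZT-2). Glucose transport (SLC2A1 and SLC2A3 only) and hexokinase sit to the right in PZT-2, at 1.62 and 1.44 times PANC-1, and enolase and 6-phosphogluconate dehydrogenase to the left, at 0.754 and 0.706 times.

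Some members lie among neighbouring genes whose median log2 fold change was away from 0. The median log2 fold change was 0.43 over the genes of chromosome 3, 0.24 over chromosome 15 and -0.29 over the X chromosome. The 20 nearest tested genes, 10 on each side, had a median of 0.23 around TKT on chromosome 3, 0.19 around PKM on chromosome 15, 0.20 around ALDOA and 0.35 around HK2. Of these neighbours, 8 were called higher and 4 lower around TKT, and 9 higher and 0 lower around HK2. Around PKM 6 were higher and 0 lower, and around ALDOA 3 and 1, against 14.7% and 13.7% of all genes. For these 4 genes the neighbours' median had the sign of the member, and the part of their position in the result was not tested. Around SLC2A1 the median was -0.089, around HK1 0.063, around ENO1 -0.032, around ENO2 -0.18, around PGD 0.023 and around RPIA 0.076, so these members stood apart from their neighbours. PGK1 on the X chromosome was near 0 while its neighbours had a median of -0.51.

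**Figure D4:**
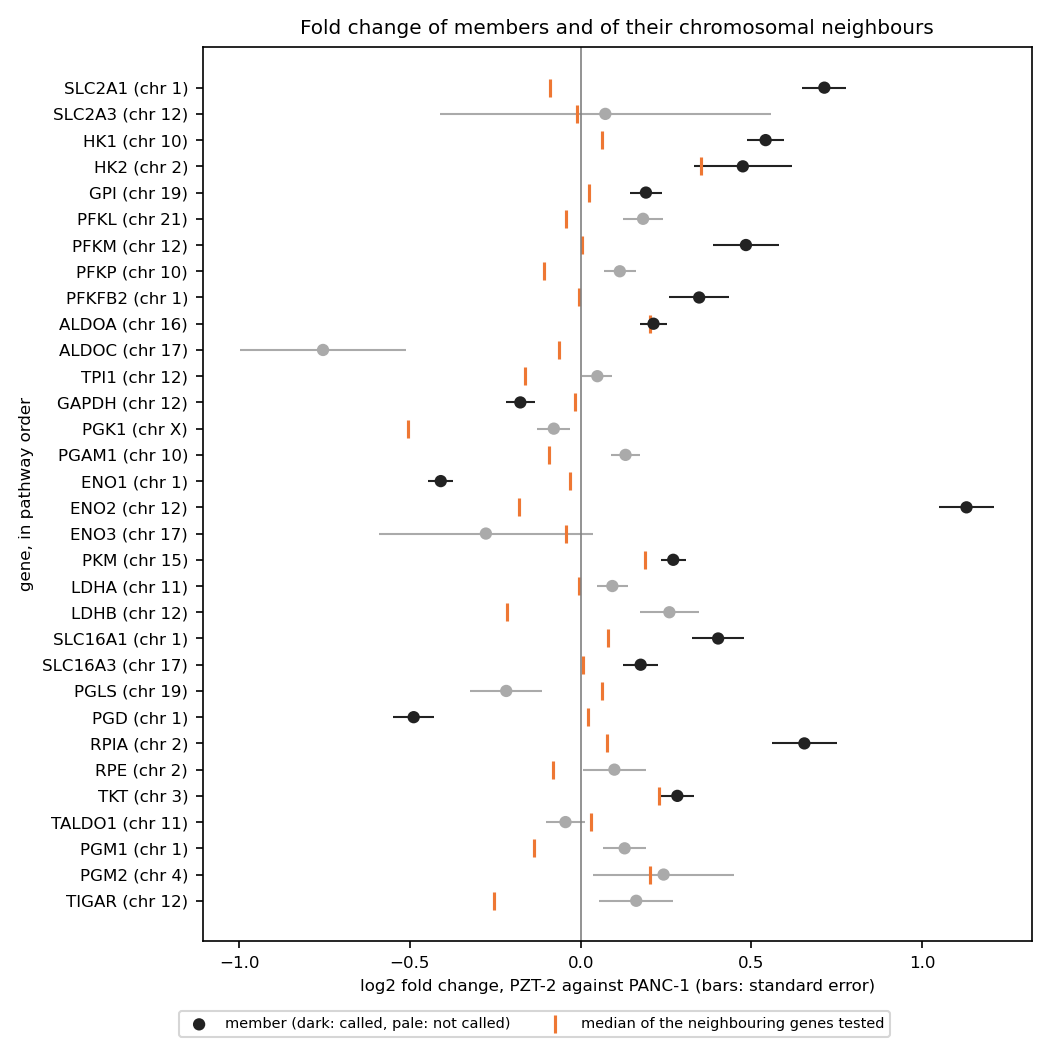
Points give each member's log2 fold change with its standard error (dark, called by edgeR; pale, not called), and orange ticks the median over its 20 nearest tested genes. ENO2, HK1, RPIA, ENO1 and PGD stand away from their ticks, whereas those of ALDOA and TKT, at 0.20 and 0.23, are close to the member's value.

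Many glycolytic promoters carry ACGTG or GCGTG, the core letters read by hypoxia-inducible factors, and CACGTG, the E-box of MYC and of the carbohydrate-response factors. RefSeq windows on GRCh38.p14 from 250 bases before to 50 after the start were searched on both strands. Of the 32 members, 29 had at least 1 such window, with or without these letters. ACGTG was in 35.7% of 56 member windows and in 21.4% of all 35116 windows, GCGTG in 39.3% and 36.5%, and CACGTG, which contains ACGTG on both strands, in 10.7% and 7.26%. The windows nearest upstream of the start are shown for the members called under every alternative that had a match upstream. Shown with them is 1 window upstream of each of the ALDOA starts above. Capitals mark the match, which reads CACGT or CACGC where it lies on the other strand.
ENO2, plus strand, chr12:6914452-6914476: ccgcgctcgtACGTGcgcctccgcc
ENO1, minus strand, chr1:8878744-8878768: agctgaggggGCGTGccccggaggc
HK1, plus strand, chr10:69318905-69318929: cgaccgtcccCACGCctgccgcccc
PGD, plus strand, chr1:10399010-10399034: gaaaagccggGCGTGagcggccgca
RPIA, plus strand, chr2:88691606-88691630: cgcagcagggCACGCagactgtgtg
ALDOA, plus strand, chr16:30064091-30064115: ttcccctccaCACGTcaacgattct
ALDOA, plus strand, chr16:30065552-30065576: tggtccgagtCACGTccgagggggg
SLC2A1 and PKM, higher and also called under every alternative, had GCGTG after the start instead, at offsets of 26 and 13 bases. The letters thus occurred both in the higher genes ENO2, HK1, RPIA, SLC2A1 and PKM and in the lower genes ENO1 and PGD. A match is a description and not a binding site.

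A further list of 83 genes of glucose metabolism, outside the 32 members, had 59 with values. By the same test 11 were higher and 12 lower, with a median log2 fold change of -0.05. Among these calls, SLC16A6, PYGM and MLXIPL passed the filter on counts only through the line where they were higher, so their calls are no support. They dropped out of the test when 1 library of that line was left out. Over all genes 28.4% were called, and 39.0% of those with a mean of at least 200 counts. The 36 others were not called, with log2 fold changes from -0.98 to 1.20. Leaving out PZT-2 replicate 1, and likewise PZT-2 replicate 2, ended the calls of ADPGK, PFKFB3, BSG, EMB, PRPS1, G6PC3, PGM2L1, KHK, ARRDC4 and MLXIPL, with adjusted p from 0.0508 to 0.237. Leaving out PZT-2 replicate 2 also ended that of MLXIP (adjusted p = 0.0749), and leaving out either PANC-1 library that of PGM2L1 (adjusted p = 0.0981 and 0.0838).

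PRPS1, which turns ribose 5-phosphate into the nucleotide precursor PRPP, was at -0.21 (edgeR adjusted p = 0.0366), with both PZT-2 libraries below PANC-1. Its neighbours on the X chromosome had a median of -0.57, and the part of position was not tested.

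Other enzymes that set fructose 2,6-bisphosphate were higher with PFKFB2. PFKFB3, the form with the strongest kinase activity, had 356 and 391 in PANC-1 and 488 and 519 in PZT-2, at a log2 fold change of 0.43 (standard error 0.0916, edgeR adjusted p = 0.0158). PFKFB4 had 79.9 and 110.3 in PANC-1 and 207 and 191 in PZT-2, at a log2 fold change of 1.05 (standard error 0.176, edgeR adjusted p = 0.00669), its chromosome 3 neighbours having a median of 0.35. BPGM, which makes 2,3-bisphosphoglycerate, had 314 and 335 in PANC-1 and 568 and 651 in PZT-2, at a log2 fold change of 0.91 (standard error 0.101, edgeR adjusted p = 0.00167). All of these PZT-2 libraries lay above those of PANC-1. ADPGK, an ADP-dependent glucokinase, was at 0.26 (edgeR adjusted p = 0.0352), its chromosome 15 neighbours having a median of 0.20.

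The 3 further glucose transporters that were called were lower, unlike SLC2A1. SLC2A12 had 248 and 248 in PANC-1 and 66.4 and 71.2 in PZT-2, at a log2 fold change of -1.84 (standard error 0.129, edgeR adjusted p = 4.08e-04), and SLC2A8, an intracellular transporter, had 503 and 432 in PANC-1 and 223 and 245 in PZT-2, at a log2 fold change of -0.99 (standard error 0.114, edgeR adjusted p = 0.00188). SLC2A6 was at -0.52 (edgeR adjusted p = 0.00516). For all 3 the PZT-2 libraries were below PANC-1. The MCT chaperones BSG (basigin) and EMB (embigin) were at -0.21 (edgeR adjusted p = 0.0354) and -0.51 (edgeR adjusted p = 0.0114), lower while SLC16A1 and SLC16A3 were higher. The neighbours of BSG had a median of -0.31 and those of EMB of -0.21, and the part of position was not tested. SLC16A6 had no counts in PANC-1 and 18.1 and 15.8 normalized counts in PZT-2, at least 11.3-fold higher against a floor of 3 counts over the PANC-1 group. It passed the filter on counts through PZT-2 alone, so its adjusted p is not given.

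Of the 16 glycogen and hexose genes with values, 6 were higher, 1 was lower and 9 were not called, against 14.7% higher and 13.7% lower over all genes. PYGL, the liver-type glycogen phosphorylase, had 344 and 326 normalized counts in PANC-1 and 1329.7 and 1392 in PZT-2, at a log2 fold change of 2.02 (standard error 0.0742, edgeR adjusted p = 5.92e-05), or 4.06-fold. GYS1, the muscle-type glycogen synthase, had 326 and 375 in PANC-1 and 525 and 559 in PZT-2, at a log2 fold change of 0.62 (standard error 0.0993, edgeR adjusted p = 0.00562). UGP2, which makes the UDP-glucose used by it, was at 0.55 (edgeR adjusted p = 0.00503), its chromosome 2 neighbours having a median of 0.25. PGM3, of the hexosamine pathway, was at 0.55 (edgeR adjusted p = 0.00576). Genes of both glycogen synthesis and breakdown were therefore higher in both PZT-2 libraries. KHK, the fructokinase, was at 1.42 (edgeR adjusted p = 0.014) among chromosome 2 neighbours with a median of 0.56. PYGM, the muscle phosphorylase, had no counts in PANC-1 and 6.04 and 5.93 in PZT-2, at least 3.98-fold higher against the same floor. It is among the 6 higher genes but passed the filter through PZT-2 alone, so its adjusted p is not given. PGM2L1 was lower, at -0.39 (edgeR adjusted p = 0.0499), and the glucose 6-phosphatase G6PC3 was at -0.45 (edgeR adjusted p = 0.0202).

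The glucose-responsive regulators were lower or not called. MLXIP encodes MondoA, which senses glucose 6-phosphate, and was at -0.47 (edgeR adjusted p = 0.0112). ARRDC4, a target of MondoA, had 50.6 and 35.2 in PANC-1 and 11.1 and 14.8 in PZT-2, at a log2 fold change of -1.71 (standard error 0.367, edgeR adjusted p = 0.0161). TXNIP, another target and a brake on glucose uptake, had 106 and 70.5 in PANC-1 and 55.4 and 48.5 in PZT-2, at a log2 fold change of -0.75 (edgeR adjusted p = 0.0707), and was not called. MLXIPL (ChREBP) had 24.8 and 8.13 in PANC-1 and 0 and 1.98 in PZT-2, too few to size the change. It passed the filter on counts through PANC-1 alone, so its adjusted p is not given. For all 4 genes both PZT-2 libraries were below PANC-1. MLX, the partner of MondoA and ChREBP, overlapped, at 0.004 (edgeR adjusted p = 0.975).

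**Figure D5:**
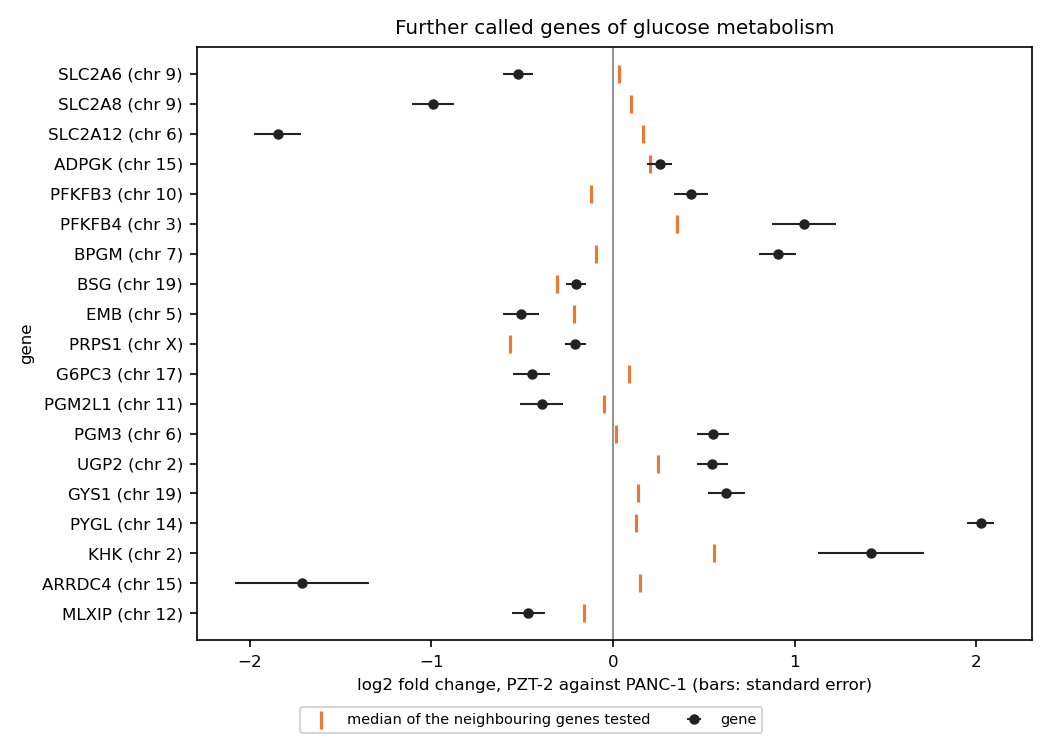
Points give the log2 fold change and standard error of 19 further called genes of glucose metabolism, with orange ticks for the median of their nearest tested genes. SLC16A6, PYGM and MLXIPL, which had no counts in at least 1 library, are left out. PYGL stands farthest right and SLC2A12 farthest left. The tick of KHK, at 0.56, lies on the same side as the gene.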

How the data were processed

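RNA-seq of 2 PANC-1 and 2 PZT-2 libraries was used. The authors trimmed reads with Trim Galore 0.4.1, quantified them with kallisto 0.43.0 and exported the table with sleuth 0.29.0, the submitters' notes naming hg19. The authors deposited estimated counts and TPM values per transcript. Per the file headers the table also holds effective lengths. A second deposited table holds the authors' own comparison, of which only the gene symbols were used and not the effect sizes, p-values or q-values. Sleuth had multiplied each library's estimated counts by 1 factor (0.935 to 1.16), which was undone by search for whole-number counts (tolerance 0.01). Counts were summed to genes by the table's symbol, or through the RefSeq accession for 3925 of 4028 transcripts without one; 103 stayed unnamed, with 0.0466% of counts.

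A gene entered the test when 2 or more libraries had at least 5 counts of it. Testing was done with edgeR 4.0.16 (quasi-likelihood F-test, TMM scaling, Benjamini-Hochberg adjusted p of 0.05, two-sided, R 4.3.3). The sleuth test of the study was not repeated because the resampled estimates it needs were not used here. Normalized counts are counts scaled to the mean effective library size. DESeq2 1.42.0 and limma 3.58.1, the latter on log2(TPM + 1) and log2(TPM + 0.1), were alternatives, beside other scalings, filters, lengths, transcript choices and leaving out each library. Simulated counts with known changes were used to check the fit. Summed TPM was described without a test, on the authors' scale. The members and further lists were chosen with earlier results of these data known. All members were named, with values in each library, and each called gene of the further list was named except 1 that is not reported here, MLX, TXNIP and PCK2 being added after their values were seen.

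Chromosomal neighbours followed RefSeq gene order. Replicates differed by more than sampling noise (chi-square per degree of freedom 6.23 in PANC-1 and 3.51 in PZT-2).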

Additional observations from a re-analysis of the deposited data

How the results depend on the processing

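The 16 called members kept their direction under all 17 alternatives, and 7 kept their call under all of them. With 1 library left out, the members called ran from 7 to 13 higher and from 2 to 4 lower, and the further genes from 6 to 12 higher and from 4 to 17 lower. Over all genes these ranges were 1086 to 2441 higher and 933 to 2214 lower. Calls were fewest without PZT-2 replicate 1 or PZT-2 replicate 2, where 7 members were higher. With the most abundant transcript of each gene alone, 1133 genes were called higher and 993 lower, and of the further genes 4 higher and 3 lower. The members' median log2 fold change was 0.12 to 0.19 with 1 library left out. H2AFV was at -0.26 with the most abundant transcript (adjusted p = 0.0687) and at -0.39 to -0.32 with 1 library left out. The member transcripts called numbered 24 with DESeq2, 8 with at least 10 counts in all 4 libraries, 0 with the counts as deposited and 0 without any 1 library, against 1. Signs turned for SLC2A3 (-0.26 to 0.46 with 1 library left out), ENO3 (-0.62 to 0.20), RPE (-0.011 to 0.20, and -0.13 with the most abundant transcript), PGM2 (-0.028 to 0.59) and G6PC3 (0.050 with the most abundant transcript). The cause was not tested. With the replicate number as a block, 10 members were higher and 3 lower, the further genes were 10 higher and 9 lower, and 0 member transcripts were called. Same-numbered libraries did not deviate together (correlation of deviations from the line means -0.0232), which cannot show whether they were prepared together. Of the values for single genes, 806 kept direction and side of the threshold, 101 lost and 11 gained a call. At a depth of 12861479 counts or more, SLC2A3, ENO3 and ALDOC had the lowest counts among the members.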

Other observations

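PCK2, the mitochondrial phosphoenolpyruvate carboxykinase, had 1260.3 and 478 normalized counts in PANC-1 and 515 and 452 in PZT-2. PANC-1 replicate 1 stood above the other 3 libraries, which lay near each other, and the log2 fold change of -0.83 (edgeR adjusted p = 0.178) became 0.012 without it, while over the 17 alternatives its adjusted p spanned 6.01e-06 to 0.957.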
